A study of Mus musculus with 8 samples.

Results

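The MHC class I and antigen processing set held 10 genes, chosen by symbol from the 24155 genes of the count table: H2-K1, H2-D1, B2m, Tap1, Tap2, Tapbp, Psmb8, Psmb9, Nlrc5 and Cd74. All 10 had a row, and 9 of them passed the filter on low counts. The cells were oligodendrocyte progenitors, the glial precursors of myelin-forming cells, immunopanned (captured on antibody-coated dishes) from male and female mouse pups at postnatal day 7 and expanded in SATO medium. The medium held bFGF at 20 ng/mL besides PDGF-AA at 10 ng/mL. In the cKO group, 4 cultures of genotype Ehmt1fl/fl;Ehmt2fl/fl received Ad-RFP-iCre, an adenoviral vector for a red fluorescent protein together with Cre, the recombinase that deletes loxP-flanked DNA. In the control group, 4 cultures with the same floxed alleles received Ad-RFP, the virus without Cre. Both groups thus carried loxP-flanked alleles and an adenovirus, given at a multiplicity of infection of 10. The exposure lasted 6 hours and cells were harvested at 72 hours. Cre and the loss of both genes came together, so their effects cannot be told apart. The cKO and control libraries were matched by batches 1, 3, 4 and 6. The labels do not say whether batches were separate animals, so p-values measure a spread that may be partly technical.

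MHC class I molecules carry peptides from inside the cell to its surface, where CD8+ T cells read them. The heavy chain (here H2-K1 or H2-D1) pairs with the light chain B2m. The TAP transporter brings proteasome products into the endoplasmic reticulum, where tapasin (Tapbp) helps to load them. Interferon exposure replaces catalytic proteasome subunits with the immunoproteasome subunits Psmb8 and Psmb9, and the transcriptional coactivator Nlrc5 drives class I genes. Cd74, the invariant chain, belongs to the class II pathway of professional antigen presenting cells. Cells of the nervous system are known for low class I levels at rest.

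Libraries held 43542742 to 65374488 estimated counts. The targeted genes fell in all 4 batches, Ehmt1 to 41.5 ± 3.98 CPM (a count scaled to the size of its library) in cKO, against 95.5 ± 5.58 CPM in control, and Ehmt2 to 58.4 ± 5.86 CPM in cKO, against 177 ± 17.1 CPM in control (SD, n = 4 per group). Progenitor markers were abundant, with summed levels of 8019 to 12137 CPM in cKO and 8712 to 13496 CPM in control libraries. Changes are given as log2 fold changes, cKO over control, with the SE. They come from an edgeR quasi-likelihood fit in which the batch is a block, unless another fit is named. "Rose" and "fell" mean a Benjamini-Hochberg adjusted p under 0.05 over all 18102 genes tested. In that fit 20.5% of all genes tested passed, 10% higher and 10.4% lower. With group alone in the model, 0.0166% of genes passed, among them Ehmt1 and Ehmt2, and no other gene named here did. At an unadjusted p under 0.05 that fit took in 4.93% of genes, and 1 of the 9 tested here, H2-D1. Mitochondrial genes held 2.999% to 3.63% of counts in cKO libraries and 2.42% to 3.24% in control libraries, higher in cKO in 4 of 4 batches. The transcript CT010467.1 held 6.61% to 9.13% of counts in cKO libraries and 7.91% to 10.1% in control libraries, lower in cKO in 4 of 4 batches. The part of either in the changes below was not tested.

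The heavy chain genes are close copies, so their shared sequence is shown first, because reads that fall in it fit more than 1 gene. The coding sequences of H2-K1 and H2-D1 (GENCODE M21) are 91.5% identical over the bases that align. Their longest identical run is 91 bases, at chr17:33997343-33997433 on the minus strand in H2-K1 and chr17:35265911-35266001 on the plus strand in H2-D1 (GRCm38).
H2-K1 and H2-D1 shared run: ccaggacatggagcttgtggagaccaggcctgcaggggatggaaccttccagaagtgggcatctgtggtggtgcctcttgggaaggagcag
Of the 8 counts per gene, 5 of H2-K1 and 7 of H2-D1 were not whole numbers (farther than 1e-06 from one), against 0 for B2m. The strain of the pups is not given in the labels, and heavy chain genes differ between strains; the part of this in the counts was not tested.

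Upstream sequence is shown for H2-K1 and B2m, whose products form 1 complex, with matches to 5 searched motifs in capitals. The motifs, searched on both strands, were the interferon response element core GAAANNGAAA, the GAS element TTCNNNGAA, the kappaB site, the CCAAT box (CCAAT) and the core of the cyclic AMP response element (CRE), TGACG. On the opposite strand the CCAAT box reads ATTGG. RefSeq windows (GRCm38.p6) matched 7 of the 10 genes, and of the start sites listed for H2-K1 the outermost was used. The H2-K1 stretch spans chr17:34000348-34000597 (minus strand) and the B2m stretch chr2:122147437-122147685 (plus strand), both 5′ to 3′ towards the start of the gene.
H2-K1: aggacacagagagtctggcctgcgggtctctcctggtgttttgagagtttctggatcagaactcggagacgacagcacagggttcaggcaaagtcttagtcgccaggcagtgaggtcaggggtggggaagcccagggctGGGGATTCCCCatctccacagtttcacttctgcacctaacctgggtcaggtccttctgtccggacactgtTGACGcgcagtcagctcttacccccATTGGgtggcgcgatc
B2m: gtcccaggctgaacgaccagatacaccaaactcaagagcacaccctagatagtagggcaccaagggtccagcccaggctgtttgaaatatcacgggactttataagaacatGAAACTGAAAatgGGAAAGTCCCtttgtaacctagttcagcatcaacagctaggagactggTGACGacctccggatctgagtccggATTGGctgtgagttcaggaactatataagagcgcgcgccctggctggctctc
The capitals in B2m mark, in order, the interferon response element core, a kappaB match, the CRE core and a CCAAT box, none of them overlapping. In H2-K1 they mark kappaB matches, the CRE core and a CCAAT box. The kappaB matches of H2-K1 lie in a stretch of 30 bases of which H2-D1 shares 29. These matches overlap each other, are offset by 1 base and read on both strands. H2-K1 is shown at chr17:34000438-34000467 (minus strand) and H2-D1 at chr17:35262914-35262943 (plus strand).
H2-K1 kappaB site: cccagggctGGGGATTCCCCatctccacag
H2-D1 kappaB site: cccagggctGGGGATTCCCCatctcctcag
Over the upstream windows of 250 bases, H2-K1 and H2-D1 were 89.5% identical across 190 aligned bases. Of all 32851 RefSeq windows of that length, 7.25% held a kappaB match, 2.98% the interferon response element core, 7.02% the GAS element, 33.8% a CCAAT box and 17.8% the CRE core. Of the 7 genes with a window, 3 held a kappaB match (B2m, H2-D1 and H2-K1) and 1 each the interferon response element core (B2m) and the GAS element (Psmb8). The CCAAT box was found in 6 of the 7, all but Psmb8, and the CRE core in 5, all but Psmb8 and Tapbp. Psmb9 and Tap1 share the 225 bases between their starts, and with them these matches. A match describes letters only and is not evidence of binding. Sites that differ from the searched letters were not looked for, so a window without a match may still hold such an element.

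H2-D1 was the heavy chain gene among the 10 that rose. H2-D1 (chromosome 17, 35262730 to 35267499, mm10, plus strand, protein-coding) had 17.8, 16.4, 16.2 and 17.2 CPM in cKO batches 1, 3, 4 and 6, against 13.7, 14.4, 13.2 and 13.2 CPM in the control libraries of those batches. Every cKO library lay above every control library, and levels within each group were close. Such a separation of groups was seen in 3.68% of all genes tested, 2.4% with cKO higher and 1.28% with cKO lower, and in 1 of the 9 tested here. The change was 0.31 ± 0.06, with an edgeR adjusted p of 0.0041. Without any 1 batch it ran from 0.29 to 0.36 and still passed. With group alone it was 0.31 ± 0.08, with an edgeR adjusted p of 0.504. In bulk samples, more cells of a type and more RNA per cell cannot be told apart.

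H2-K1, the other classical heavy chain gene, followed the batch and not the group. H2-K1 (chromosome 17, 33996017 to 34000347, minus strand, protein-coding) had 27.3, 14.2, 25.8 and 31.5 CPM in cKO batches 1, 3, 4 and 6, against 27.2, 16.8, 24.3 and 27.5 CPM in control. The groups overlapped throughout, and batch 3 was lowest in both. The change was 0.02 ± 0.07 (edgeR adjusted p = 0.839), and its sign turned without batch 6 (-0.038).

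The level of H2-D1 relative to H2-K1 was also compared. Per kb of annotated exon, H2-D1 stood at 74.4%, 131%, 71.5% and 62.4% of H2-K1 in cKO batches 1, 3, 4 and 6, against 57.5%, 97.5%, 61.8% and 54.7% in control. The ratio was higher in cKO in 4 of 4 batches, by 0.30 ± 0.12 on the log2 scale (SD, n = 4 pairs). With 4 pairs, the exact permutation test by sign flips cannot go below p = 0.125 (2-sided). That was the p of this ratio, or 0.438 adjusted over the 7 ratios computed.

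**Figure D1:**
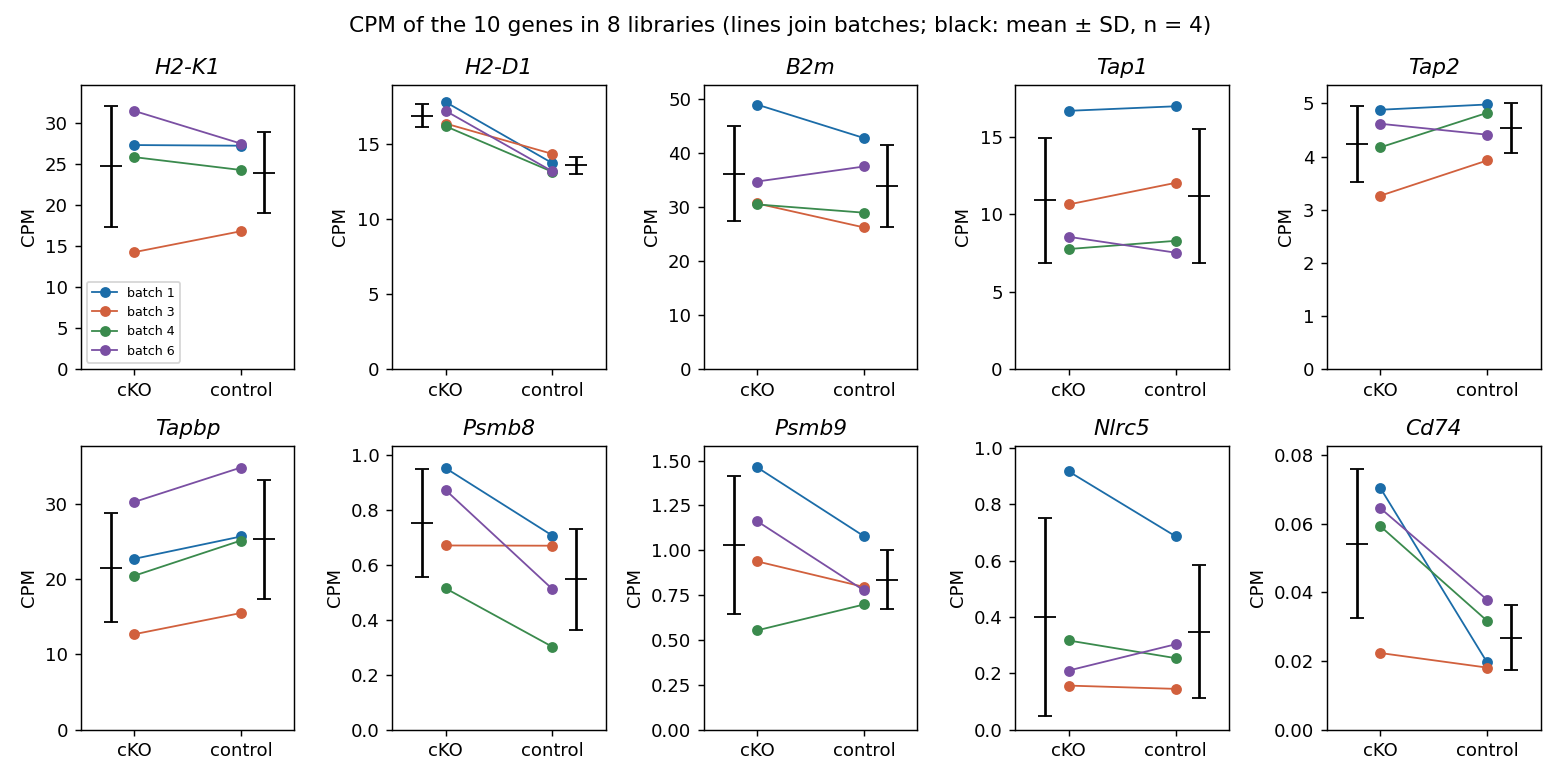
CPM of each of the 10 genes in the 4 cKO and 4 control libraries, with lines joining libraries of 1 batch and black bars for the mean ± SD (n = 4). H2-D1 is the gene whose groups separate, with 16.2 to 17.8 CPM in cKO and 13.2 to 14.4 CPM in control, and in most other panels the lines of the batches stand apart while the groups overlap.

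B2m, the light chain that class I molecules need at the surface, did not pass. B2m (chromosome 2, 122147686 to 122153083, plus strand, protein-coding) had 49.0, 30.7, 30.5 and 34.7 CPM in cKO batches 1, 3, 4 and 6, against 42.8, 26.2, 28.96 and 37.5 CPM in control. It was higher in cKO in 3 of 4 batches and lower in batch 6. The change was 0.09 ± 0.06 (edgeR adjusted p = 0.271), and without batch 6 it was 0.16, with an adjusted p of 0.0375 in edgeR.

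Since reads can be exchanged between close copies, the 16 class I heavy chain genes of the table were also summed to 1 feature. H2-K1 and H2-D1 made up 64.0% of that sum on average. The sum was 71.7, 56.7, 62.5 and 69.4 CPM in cKO batches 1, 3, 4 and 6, against 65.2, 55.7, 55.2 and 57.3 CPM in control. It was higher in cKO in all 4 batches, although the groups overlapped. The change was 0.15 ± 0.04, with an edgeR adjusted p of 0.0262. Without batch 1, 4 or 6 the edgeR adjusted p was 0.0741, 0.0871 and 0.081, at changes of 0.16, 0.16 and 0.11, and with group alone it was 0.9998 at 0.16.

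Of the peptide loading genes, Tapbp fell and the transporter genes did not pass. Tapbp (chromosome 17, 33915899 to 33929292, plus strand, protein-coding) encodes tapasin, which bridges the transporter and the class I molecule. It had 22.7, 12.7, 20.4 and 30.2 CPM in cKO batches 1, 3, 4 and 6, against 25.6, 15.5, 25.1 and 34.8 CPM in control. The cKO library was lower in each batch, while batches differed so much that the groups overlapped. The change was -0.24 ± 0.05 (edgeR adjusted p = 0.00572), between -0.26 and -0.21 without any 1 batch. With group alone it was -0.23 ± 0.30 (edgeR adjusted p = 0.9999).

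Tapbp shares its place with other genes, and the labels and processing notes do not state whether counting used strand. The antisense gene Gm19412 lies within Tapbp on the opposite strand over 1207 bases and fell by 0.49 on the log2 scale (edgeR adjusted p = 0.00422). Zbtb22, a zinc finger gene on the same strand, overlaps it over 3422 bases and fell by 0.15 (edgeR adjusted p = 0.0364). All 8 counts of Tapbp were not whole numbers. The share of the fall that belongs to each of these genes cannot be told apart.

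Tap1 and Tap2 encode the 2 chains of the peptide transporter. Tap1 (chromosome 17, 34187553 to 34197225, plus strand) had 16.7, 10.6, 7.75 and 8.54 CPM in cKO batches 1, 3, 4 and 6, against 16.98, 12.03, 8.28 and 7.52 CPM in control. Tap2 (chromosome 17, 34203527 to 34216321, plus strand) had 4.88, 3.26, 4.17 and 4.62 CPM in cKO, against 4.98, 3.92, 4.82 and 4.41 CPM in control. Both genes were lower in cKO in 3 of 4 batches and higher in batch 6, and the groups overlapped. The changes were -0.03 ± 0.07 for Tap1 (edgeR adjusted p = 0.815) and -0.10 ± 0.10 for Tap2 (edgeR adjusted p = 0.504). The sign for Tap1 turned without batch 3 (0.023).

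The immunoproteasome genes were low and did not pass. Psmb8 (chromosome 17, 34197721 to 34201454, plus strand), the inducible counterpart of Psmb5, had 0.951, 0.670, 0.514 and 0.872 CPM in cKO batches 1, 3, 4 and 6, against 0.706, 0.669, 0.301 and 0.511 CPM in control. These levels rest on 26 to 54 counts in cKO and 19 to 37 in control libraries. Psmb8 was higher in cKO in each batch, by next to nothing in batch 3, and its groups overlapped (0.48 ± 0.23, edgeR adjusted p = 0.17). Psmb9 (chromosome 17, 34181987 to 34187764, minus strand), the counterpart of Psmb6, had 1.46, 0.938, 0.554 and 1.16 CPM in cKO, against 1.08, 0.796, 0.698 and 0.776 CPM in control. It was lower in cKO in batch 4 alone (0.26 ± 0.21, edgeR adjusted p = 0.414). Psmb9 and Tap1 run in opposite directions from starts 225 bases apart in RefSeq, and their annotated 5′ ends overlap over 212 bases, so without strand their reads cannot be told apart there.

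Set against the constitutive subunits per kb of exon, the immunoproteasome genes were minor. Psmb8 stood at 0.268% ± 0.0793 of Psmb5 in cKO and 0.199% ± 0.0684 in control libraries (SD, n = 4). Psmb9 stood at 0.418% ± 0.154 of Psmb6 in cKO and 0.348% ± 0.0556 in control. Psmb10, the third inducible subunit, was higher, at 13.6% ± 0.836 of Psmb7 in cKO and 13.5% ± 1.36 in control. The same exact permutation test gave p = 0.25, 0.375 and 0.75 for these 3 ratios (n = 4 pairs), which does not show that the ratios were equal.

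Nlrc5 and Cd74 lay near the floor of detection. Nlrc5 (chromosome 8, 94434356 to 94527272, plus strand), the class I coactivator, had 0.916, 0.156, 0.316 and 0.210 CPM in cKO batches 1, 3, 4 and 6, against 0.686, 0.145, 0.254 and 0.303 CPM in control. Batch 1 was highest in both groups, and the change was 0.13 ± 0.29 (edgeR adjusted p = 0.795), with -0.044 without batch 1. Cd74 (chromosome 18, 60803848 to 60812652, plus strand) had 4, 1, 3 and 4 counts in cKO batches 1, 3, 4 and 6, against 1, 1, 2 and 2 counts in control. It did not pass the filter, and no fold is given for totals of 12 counts in cKO and 6 in control.

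**Figure D2:**
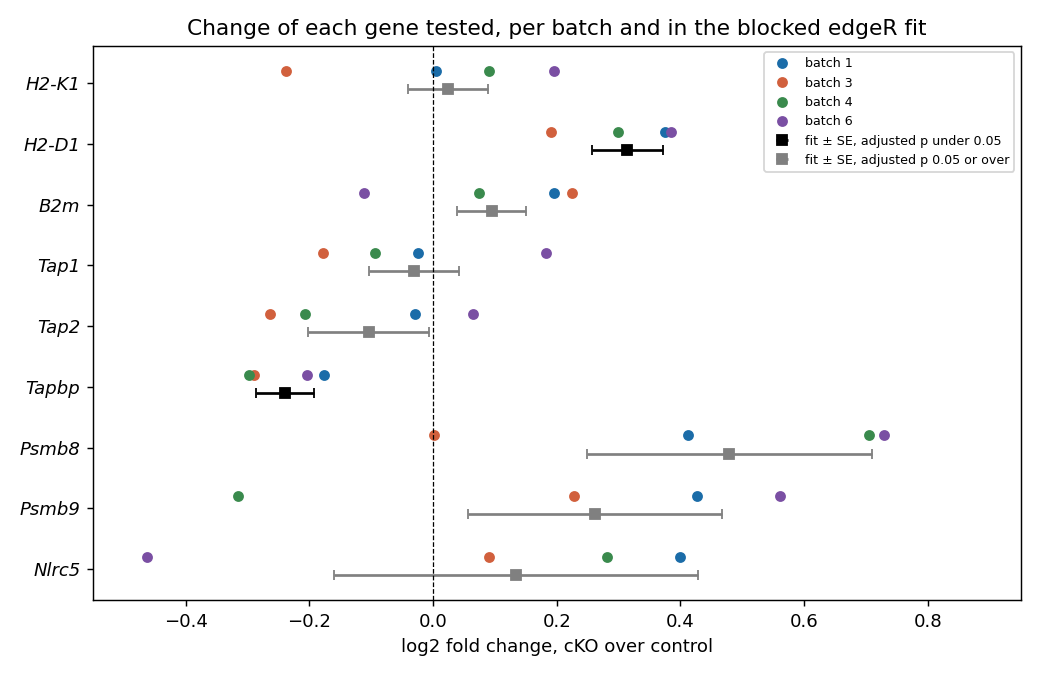
Log2 fold change of cKO over control for the 9 genes tested, as within-batch differences of log2 CPM (coloured points) and as the blocked edgeR estimate ± SE (squares). H2-D1 (0.31) and Tapbp (-0.24) lie clear of 0 in all 4 batches, whereas the other genes except Psmb8 have batches on both sides of 0.

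Counted together, 1 of the 9 genes tested rose, 1 fell and 7 did neither. That is 22.2% against 20.5% of all genes tested, a share near the background. The cKO library was on the same side of control in all 4 batches for 3 of the 9 (H2-D1, Psmb8 and Tapbp), which was so for 40.7% of all genes tested. The median change was 0.09, against -0.01 over all genes tested, and the median absolute change was 0.13, against 0.12. The filter counted libraries of both groups together, so a gene could pass through 1 group alone or through libraries of both. Cd74, left out by the filter, is not covered by these figures.

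Levels differed between the genes by orders of magnitude. Per kb of annotated exon, B2m led with 42.1 ± 10.2 CPM per kb in cKO and 39.4 ± 8.90 in control (SD, n = 4 per group). H2-K1 (8.41 ± 2.51 in cKO and 8.14 ± 1.70 in control), H2-D1 (6.56 ± 0.292 in cKO and 5.28 ± 0.218 in control) and Tapbp (5.92 ± 1.99 in cKO and 6.96 ± 2.17 in control) came next. These 3 did not differ beyond their spread in cKO, while in control H2-D1 lay below H2-K1. Tap1 followed with 1.99 ± 0.738 CPM per kb in cKO and 2.05 ± 0.790 in control, then Tap2 with 1.12 ± 0.188 in cKO and 1.20 ± 0.125 in control. Psmb9 (0.281 ± 0.105 in cKO and 0.229 ± 0.0454 in control) and Psmb8 (0.222 ± 0.0585 in cKO and 0.162 ± 0.0545 in control) did not differ beyond their spread. Nlrc5, at 0.0471 ± 0.0413 in cKO and 0.0408 ± 0.0277 in control, and Cd74, at 0.0323 ± 0.0129 in cKO and 0.0160 ± 0.00570 in control, closed the order. Exon lengths join all annotated exons of a gene, so a gene with long minor transcripts has a lower value per kb.

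The batch, as named in the labels, accounted for most of the variation in 8 of the 9 genes tested. Its share of the sum of squares of log2 CPM over the 8 libraries was 97.6% for Tap1, 95.3% for H2-K1, 95.5% for Nlrc5, 92.5% for Tapbp and 91.8% for B2m, against a median of 81.1% over all genes tested. It was below that median for Tap2 (79.6%), Psmb9 (74.9%), Psmb8 (64.1%) and H2-D1. For H2-D1 the share was 4.88%, and the group held 89.6%. Tapbp had 7.18% in the group and 0.337% left over. In batch 3 H2-K1, Tap2 and Tapbp were lowest in both groups, whereas Tap1 was highest in batch 1 and lower in batches 4 and 6.

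**Figure D3:**
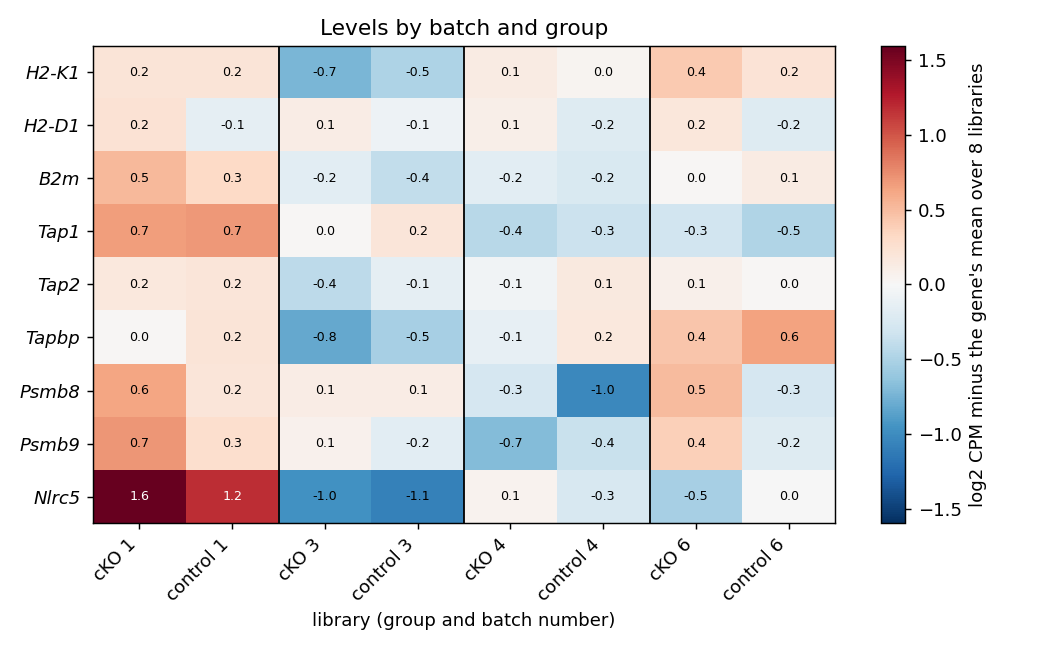
Log2 CPM of the 9 genes tested minus each gene's mean over 8 libraries, with columns ordered by batch and, within a batch, cKO before control. Most colour changes fall at batch borders, with both libraries of batch 1 high for Nlrc5 (0.916 CPM in cKO and 0.686 CPM in control), while H2-D1 alternates within each batch.

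Likeness of pattern was measured as the Pearson r between a gene's log2 CPM and the mean standardized log2 CPM of the 9 genes over 8 libraries, which share batches in pairs. Of 11707 candidate genes, Suclg2 (0.99), Slc16a9 (0.98), Mrtfb (0.98), Rab31 (0.97) and Gstt1 (0.97) were nearest. Within the set, the description by r was uneven over the same 8 libraries. H2-K1 and Tapbp went together (0.91), as did B2m and Nlrc5 (0.89), whereas H2-K1 and H2-D1 did not (0.03).

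Position was shared by 7 of the 10 genes, which lie on chromosome 17 between Tapbp and H2-D1, a span of 1.35 Mb. The targeted gene Ehmt2 lies inside that span, 682 kb past Tap2 and 349 kb before H2-D1. Of 76 genes tested there, 17 fell and 1 rose, or 23.7% called, against 20.5% of all genes tested. By direction, 22.4% fell and 1.32% rose there, against 10.4% and 10% of all genes tested. The gene that rose was H2-D1, and Ehmt2 and Tapbp are among those that fell. This span was set after values had been seen.

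Among other class I and class I-like genes, 2 of 11 tested rose and 9 did not pass. That is 18.2% higher and 0% lower, against 10% and 10.4% of all genes tested, or 18.2% called against 20.5%. The median change was -0.04, against -0.01 over all genes tested. In edgeR 0 fell (1 at an unadjusted p under 0.05), and 0 fell in DESeq2 and limma-voom. H2-T10 is a nonclassical gene with the annotated biotype polymorphic pseudogene. It had 1.94, 1.41, 1.76 and 1.18 CPM in cKO batches 1, 3, 4 and 6, against 0.706, 0.488, 0.587 and 0.606 CPM in control. The groups did not overlap, and the change was 1.38 ± 0.19 (edgeR adjusted p = 0.000792). H2-T22, a close copy with 96.9% identical coding sequence, averaged 12.9 ± 0.932 CPM in cKO and 10.6 ± 0.842 CPM in control (0.28 ± 0.06, edgeR adjusted p = 0.0116; SD, n = 4). Without batch 1 the adjusted p of H2-T22 was 0.0536. How reads were divided between H2-T10 and H2-T22 is uncertain, and the coding sequences of H2-D1 and H2-T22 also share an identical run of 126 bases.

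Of 22 other genes of peptide supply and loading, 3 rose and 5 fell. That is 13.6% higher and 22.7% lower, against 10% and 10.4% of all genes tested, or 36.4% called against 20.5%, with a median change of 0.01. Sppl2a, an intramembrane protease known to cleave CD74, rose (0.19 ± 0.04), as did Psmb7, a constitutive proteasome subunit (0.14 ± 0.04). Erap1, which trims class I peptides, rose to 14.6 ± 1.32 CPM in cKO, against 12.2 ± 2.14 CPM in control (0.27 ± 0.07, edgeR adjusted p = 0.0239; SD, n = 4), and was singled out after its value was seen. Uggt1 (-0.13 ± 0.03) and Ganab (-0.12 ± 0.03), which act on N-glycans in the endoplasmic reticulum, and Psme3, a nuclear proteasome activator (-0.11 ± 0.03), fell. So did the chaperones Calr (-0.10 ± 0.03), part of the class I loading complex, and Hspa5 (-0.10 ± 0.03), both named after their values were seen. With upper-quartile scaling 4 of the 22 rose and 3 fell. Psmb5 (0.03 ± 0.03), Psmb6 (0.04 ± 0.04) and Psmb10 (0.15 ± 0.07) did not pass.

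Of 24 genes of class I transcription factors and interferon signalling, 1 rose and 6 fell. That is 4.17% higher and 25% lower, against 10% and 10.4% of all genes tested, or 29.2% called against 20.5%, with a median change of -0.07. Ifngr1, a chain of the interferon gamma receptor, fell to 20.3 ± 0.926 CPM in cKO, against 24.4 ± 1.65 CPM in control (-0.26 ± 0.05; SD, n = 4), and the groups did not overlap. Ifnar2, a chain of the type I interferon receptor, fell (-0.27 ± 0.06), as did the receptor-bound kinase Jak2 (-0.20 ± 0.03). The others that fell were Stat2 (-0.19 ± 0.05), Jak1 (-0.12 ± 0.03) and Tyk2 (-0.21 ± 0.06), named after their values were seen. Irf1 (-0.09 ± 0.08) and Rfx5 (-0.11 ± 0.04), factors of class I promoters, did not pass.

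Of 8 class II pathway genes tested, 0 rose and 0 fell in edgeR (1 higher and 2 lower at an unadjusted p under 0.05). DESeq2 and limma-voom likewise called 0. That is 0% called against 20.5% of all genes tested, and with 8 genes it does not show that class II genes were unchanged. Ciita, the class II coactivator, averaged 0.579 ± 0.293 CPM in cKO and 0.556 ± 0.123 CPM in control (0.01 ± 0.35, edgeR adjusted p = 0.986; SD, n = 4). H2-Ab1, a class II chain, averaged 1.12 ± 0.413 CPM in cKO and 1.29 ± 0.536 CPM in control (-0.20 ± 0.20, edgeR adjusted p = 0.512; SD, n = 4), named after its value was seen. Of 23 interferon-stimulated genes tested, 5 rose and 0 fell in edgeR (1 lower at an unadjusted p under 0.05). That is 21.7% higher and 0% lower, against 10% and 10.4% of all genes tested, or 21.7% called against 20.5%. The median change was 0.17. DESeq2, which gave 1 of the 23 no adjusted p, called 3 higher and limma-voom 4, with 0 lower in either. The genes that rose included Gbp7 (0.96 ± 0.16), an interferon-induced GTPase, Ifit2 (0.54 ± 0.07), Ifi27 (0.37 ± 0.10) and Ifit3 (0.86 ± 0.27). The fifth, Ifih1, a sensor of double-stranded RNA (0.67 ± 0.21), was named after its value was seen.

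**Figure D4:**
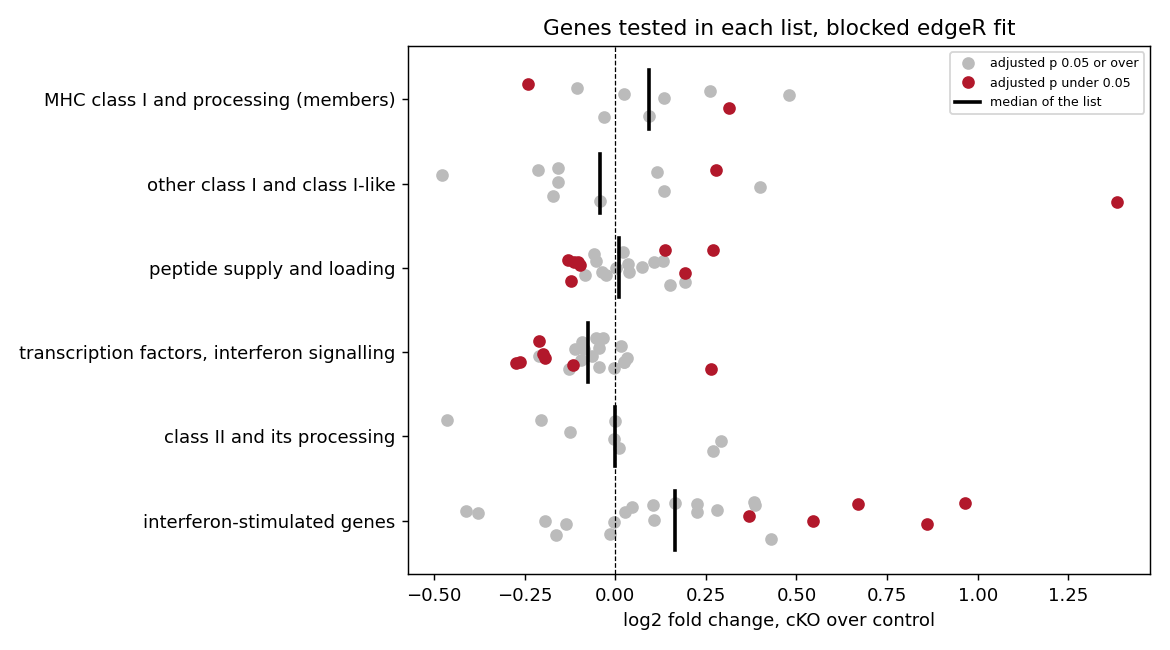
Log2 fold change of cKO over control for the genes tested among the 10 members and in the 5 pathway lists, without the marker lists and the targeted genes, with red points for an adjusted p under 0.05 and a black bar at the list's median. Most points lie within 0.5 of 0, and of the points drawn H2-T10 at 1.38 is farthest from it.

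Markers of other cells are given here because antigen presenting cells carry class I RNA at high levels. Of 18 microglia and macrophage markers, 6 had a row in the table, and their summed level was 1.53 to 4.09 CPM in cKO and 0.947 to 2.18 CPM in control libraries. The sum was higher in cKO in 4 of 4 batches, by 0.72 on the log2 scale (p = 0.125 by the exact permutation test, its smallest value with 4 pairs). Of the 3 tested, P2ry12 (0.77 ± 0.24) and Cd68 (0.79 ± 0.21) rose, whereas DESeq2 with the block called 0 of the 3 (2 higher at an unadjusted p under 0.05) and limma-voom 2. Laptm5 was at 0 counts in cKO batch 4 and Ptprc at 0 counts in control batch 4. Of 12 dendritic cell and lymphocyte markers 2 had a row, with sums of 0.0969 to 0.388 CPM in cKO and 0.127 to 0.217 CPM in control. Endothelial markers summed to 4.36 to 15.2 CPM in cKO and 3.27 to 13.2 CPM in control (1 of 3 tested rose in edgeR and 0 in DESeq2, where 2 were higher at an unadjusted p under 0.05), higher in cKO in 4 of 4 batches. Fibroblast and mural markers summed to 1.32 to 4.58 CPM in cKO and 1.27 to 4.71 CPM in control (2 of 5 rose), higher in cKO in 2 of 4 batches. Astrocyte markers summed to 1166 to 2822 CPM in cKO and 1257 to 3073 CPM in control (2 of 10 rose and 4 fell), lower in cKO in 4 of 4 batches. Neuron markers summed to 94.6 to 151 CPM in cKO and 72.6 to 112 CPM in control (5 of 8 rose), higher in cKO in 4 of 4 batches. Of 10 progenitor markers 1 rose and 2 fell, and their sum was lower in cKO in 4 of 4 batches. Over all genes tested, 10% rose and 10.4% fell. By list, 66.7% of microglia and macrophage, 62.5% of neuron, 40% of fibroblast and mural and 33.3% of endothelial markers tested rose, and 0% fell. For astrocyte markers 20% rose and 40% fell, and for progenitor markers 10% and 20%. All 4 batches went 1 way for 40.7% of all genes tested, counted gene by gene and not for sums. The part of these cells in the change of H2-D1 or of the summed heavy chains was not tested.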

How the data were processed

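Polyadenylated RNA of 8 libraries was analysed. The submitters' processing notes list cutadapt, DESeq2, Partek and STAR, and the mm10 build. Versions, annotation and strand setting were not given in the sources used here. Per gene, the authors deposited estimated counts without normalization, of which 51.6% are fractional (farther than 1e-06 from a whole number). Per the labels' protocols, RNA had an integrity number of at least 8.

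Counts were rounded. Genes were kept by filterByExpr (minimum count 10), leaving 18102. TMM factors, glmQLFit (robust) and glmQLFTest of edgeR 4.0.16 (R 4.3.3) tested group with the replicate number as a block, 2-sided, with Benjamini-Hochberg adjustment. The labels' batch names pair the samples: deviations from group means correlated at 0.75 to 0.79 within numbers and at most 0.39 across them. CPM use TMM-adjusted library sizes, log2 CPM a prior count of 2. Precision is limited by the spread between libraries and, for genes of few reads, by counting. Alternatives were group alone, RLE and upper-quartile scaling, 2 other filters, DESeq2 1.42.0, limma-voom 3.58.1 and each batch left out. No 2 libraries of a group were duplicates (chi-square per degree of freedom 49.3 or more). The procedure was tested on simulated counts.

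The members and lists were chosen with earlier results of these data known. Besides the 10 members, up to 4 genes per list with the smallest p past the threshold were named, then Ciita, Rfx5, Irf1, Psmb10, Psmb5, Psmb6 and Psmb7, and the 5 genes nearest in pattern. Some genes that this rule took are left out of the text. Exon lengths and coding sequences came from GENCODE M21, promoter windows from RefSeq.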

Additional observations from a re-analysis of the deposited data

How the results depend on the processing

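The replicate block decided the calls. In edgeR without the block, 3 genes passed over the whole table (893 at an unadjusted p under 0.05), with 0 members higher, 0 members lower and 0 genes of the 4 related pathway lists, and the summed heavy chains changed by 0.16 with an adjusted p of 0.9998. The changes of the members themselves kept their sign there. Under the other scalings, filters and tests, with the block, H2-D1 rose and Tapbp fell in each. Without any 1 batch, 2102 to 3432 genes passed (3706 with all), 1 to 2 members rose (2 without batch 6, B2m being the other), 1 fell, and 7 to 15 of the related genes passed (17 with all). Over the same fits the summed heavy chains changed by 0.11 to 0.20. Signs turned for Nlrc5 without batch 1 (-0.044), Tap1 without batch 3 (0.023) or 4 (0.00066) and H2-K1 without batch 6 (-0.038), whose other ends were 0.33 for Nlrc5, -0.10 for Tap1 and 0.10 for H2-K1. The cause of these shifts was not tested, beyond the fewer samples. A filter of 1 CPM in 4 libraries gave no value for Psmb8, Psmb9 and Nlrc5. Counts of 7 to 54 per library limit Psmb8 and Nlrc5.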
